A study of Homo sapiens with 96 samples.

Results

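The genes described here are 10 members of the ATF4 and CHOP stress transcription program, ATF4, ATF5, DDIT3, TRIB3, CHAC1, CEBPB, ATF3, PCK2, ADM2 and STC2, out of 58434 gene rows in the deposited table. They were taken by symbol through their Ensembl identifiers, and all 10 were found and passed the filter on low values. The set was selected on measured values of these same libraries, in which exposed cultures had been compared with unexposed ones. Levels against unexposed cultures and against progenitors are therefore given as a description. Calls, intervals and p-values printed for them are not read as results. Tests are read only for contrasts between exposed groups. No control library is part of those differences, although the controls share the fit's estimate of spread and its run terms. The exposed libraries had a part in the selection, so these tests are not fully independent of it. Acrylamide IC20/100 lay near the controls, with 0 members called against them. Tests that use this group therefore come close to the comparisons behind the selection. Valproic acid IC20/100 was next nearest, with 8 of 10 members overlapping the controls. Tests that use it partly repeat those comparisons.

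The libraries came from neural cells made from the human embryonic stem cell line H9. Exposed groups were neuron and astrocyte co-cultures at day 10 of differentiation that had received acrylamide (an industrial neurotoxicant), valproic acid (an antiepileptic drug), chlorpyrifos (an organophosphate insecticide), fluoxetine (an antidepressant) or methyl mercury, each at 2 levels that the labels call IC5 and IC20/100. The vehicle was medium for acrylamide and valproic acid, and DMSO for chlorpyrifos, fluoxetine and methyl mercury. The control group was the same co-culture at day 10 with no exposure, and NPC denotes the neural progenitors at day 0. Each of the 12 groups had 8 libraries, described as technical replicates of 1 experiment with 1 cell line. All p-values below therefore measure only the spread between these libraries. Molar doses, length of exposure and any DMSO in control cultures were not stated, so a named level is not a matched dose.

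ATF4 is a bZIP transcription factor at the centre of the integrated stress response. In that pathway, kinases that sense amino acid shortage, unfolded protein in the endoplasmic reticulum, double-stranded RNA or heme deficiency phosphorylate eIF2α, which lowers protein synthesis overall while translation of the ATF4 message goes up. ATF4 then activates genes of amino acid supply and tRNA charging, together with DDIT3, which encodes the pro-apoptotic factor CHOP. Much of the control of ATF4 is translational, so its mRNA level need not follow the level of its protein, which was not measured here.

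A common docking site of ATF4 with C/EBP partners is the C/EBP-ATF response element, searched here as TGATGNAA on both strands of RefSeq promoter windows (GRCh38.p14, 250 bases before to 50 after the annotated start). All 10 members had a window. The element was found in 2 of the 10 members (20.0%), CHAC1 and ATF3, against 1217 of 27305 genes with a window (4.46%). A gene with more than 1 window counted if any of them held the element, and ATF3 had another window without it. By window, the element was in 2 of 18 for the members and in 1270 of 35116 for all (3.617%). The palindromic cyclic AMP response element TGACGTCA, which shares no match with the first, was found in 0 members and in 2.25% of all genes. Both members with a match are shown, CHAC1 with its whole window and ATF3 with the bases around the match. Capitals mark the element, and the strand printed is that of the gene. The CHAC1 window is chr15:40953221-40953520 on the + strand, where the element lies in reverse orientation with its first base at position -209 from the start. The ATF3 stretch is chr1:212565200-212565239 on the + strand, with the element at position -191.
CHAC1: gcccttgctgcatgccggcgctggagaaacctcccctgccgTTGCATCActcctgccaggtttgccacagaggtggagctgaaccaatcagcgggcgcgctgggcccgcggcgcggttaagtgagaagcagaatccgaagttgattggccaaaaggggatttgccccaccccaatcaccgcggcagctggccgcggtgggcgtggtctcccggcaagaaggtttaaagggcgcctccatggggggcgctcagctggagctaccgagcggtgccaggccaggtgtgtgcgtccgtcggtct
ATF3: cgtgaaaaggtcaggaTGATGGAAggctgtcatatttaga

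The same element was found in 7 of 25 other ATF4 or CHOP target genes that had a window (28.0%), among them ASNS and AARS1, which reappear below because their levels ran closest to those of the members. The ASNS stretch is chr7:97872453-97872492 and the AARS1 stretch chr16:70289670-70289709, both on the - strand. A match gives the letters in the window and does not say that a factor bound there.
ASNS: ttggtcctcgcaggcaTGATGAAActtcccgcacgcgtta
AARS1: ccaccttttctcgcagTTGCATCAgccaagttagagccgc

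Recovered reads per library ran between 9.49 and 29.63 M (megareads), with a median of 18.94 M. The fewest reads behind a single member value were 8, for ADM2 at 3 of the IC5 groups, where counting error is large. Control cultures expressed the neuronal genes DCX (27004 ± 1633), TUBB3 (21264 ± 1507) and MAP2 (17969 ± 955). Of the defining astrocyte genes, GFAP was at 25.7 ± 14.6, S100B at 19.4 ± 3.3 and AQP4 at 5.4 ± 6.5 normalized counts in controls. Other genes of the astrocyte list were higher there, with SLC1A3 at 1941 ± 198, SLC1A2 at 2850 ± 344, SOX9 at 3189 ± 253 and FGFR3 at 3605 ± 383. Microglial P2RY12 was at 0 in every day 10 library. Methyl mercury IC20/100 replicate 8 stood apart, with a deposited total of 20.95 M against 18.11 to 18.99 M in the other day 10 libraries, and it was the highest of its group for 7 of the 10 members. For the tests that use this group, counts of called genes are therefore also given without it. The mitochondrial share of reads was 3.09 ± 0.14% at acrylamide IC5 and 3.05 ± 0.08% at valproic acid IC5, against 2.47 ± 0.10% in controls, and its part in the results was not tested. These are bulk samples, in which fewer cells of a type and less RNA per cell cannot be told apart.

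Levels are normalized counts as deposited, with the SD over 8 libraries. ATF4 (ENSG00000128272.14, chromosome 22, 39519695 to 39522685, + strand in GENCODE 29 on GRCh38) varied least among the members. In fluoxetine IC5 cultures, the lowest group, it was at 3768 ± 187 (lowest 3438, median 3858, highest 3943). At acrylamide IC20/100 it was at 5422 ± 429.9 (lowest 4857, median 5480.0, highest 5942), against 5447 ± 236 in controls (lowest 5050.2, median 5398, highest 5736). No fluoxetine IC5 library reached the lowest control, whereas acrylamide IC20/100 and control libraries overlapped. NPC libraries had 5965 ± 199 (lowest 5752, median 5926, highest 6282) and all lay above every control. At methyl mercury IC20/100 the mean of 4875 ± 1302 included 1 library at 8049, while the other 7 averaged 4422 ± 246. The highest day 10 group mean of ATF4 was 1.45 times the lowest.

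DDIT3, the gene for CHOP, had 3.17 times the level in its highest day 10 group as in its lowest. It was at 177 ± 19.9 with chlorpyrifos IC5 (lowest 152, median 177, highest 217) and at 207 ± 20.5 with acrylamide IC5 (lowest 173, median 207, highest 246). With acrylamide IC20/100 it was at 542 ± 93.03 (lowest 454, median 507, highest 689.9), against 560.1 ± 106 in controls (lowest 384, median 591, highest 700.0). Thus 1 level of acrylamide gave values inside the control range and the other gave values wholly below it. Valproic acid showed an intermediate value at IC20/100, 379 ± 76.6, and 184 ± 28.8 at IC5. Methyl mercury ran the other way round, with 348 ± 45.4 at IC5 (lowest 289, median 355, highest 399) and 241 ± 90.4 at IC20/100 (lowest 167, median 209, highest 455). NPC libraries held 208 ± 12.1, inside the range of the lower exposed groups.

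ATF5 encodes a bZIP factor that is translated under stress much as ATF4 is and that takes part in the mitochondrial unfolded protein response. It was at 269 ± 16.3 with acrylamide IC5 (lowest 248, median 266, highest 293) and 249.1 ± 36.6 with valproic acid IC5 (lowest 197, median 241, highest 326). At IC20/100 it was at 1349 ± 227 with acrylamide and 959 ± 191 with valproic acid, against 1326 ± 206 in controls (lowest 1059, median 1321, highest 1665). Of the exposed groups, only the IC20/100 levels of the compounds dissolved in medium overlapped the controls. Methyl mercury IC5 stood between, at 726 ± 85.2 (lowest 599, median 741, highest 832), with no library as low as the highest at methyl mercury IC20/100 (403 ± 97.03, lowest 299.9, median 370.0, highest 574). Chlorpyrifos gave 323 ± 32.4 at IC5 and 386 ± 33.3 at IC20/100, and fluoxetine 311 ± 33.5 and 373 ± 38.6 at the same levels.

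CEBPB, a C/EBP factor that pairs with ATF4, was at 14.6 ± 3.80 with acrylamide IC5 (lowest 9.86, median 13.7, highest 20.7) and 126 ± 28.9 with acrylamide IC20/100, against 124 ± 21.5 in controls (lowest 92.4, median 127, highest 154). Its control libraries all lay above those of valproic acid IC20/100 (78.1 ± 12.6, lowest 57.5, median 83.8, highest 90.5). ATF3, an early stress-induced bZIP factor, varied widely among controls, 589.7 ± 159.5 (lowest 387, median 551, highest 883). It was at 141 ± 25.9 with acrylamide IC5, 537 ± 137 with acrylamide IC20/100 and 284 ± 47.9 with fluoxetine IC5. TRIB3, a pseudokinase that binds and restrains ATF4 and CHOP, was at 92.997 ± 12.6 with acrylamide IC5 (lowest 79.7, median 91.3, highest 118) and 519.9 ± 94.6 with acrylamide IC20/100, against 496 ± 113 in controls (lowest 349, median 483, highest 663). The fluoxetine groups had TRIB3 at 149 ± 11.95 at IC5 and 145 ± 24.1 at IC20/100, both below every control.

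Of the target enzymes, CHAC1, which breaks down glutathione, was at 66.2 ± 5.71 with valproic acid IC5 (lowest 58.6, median 66.3, highest 73.4), 69.1 ± 10.3 with fluoxetine IC5 and 73.9 ± 9.64 with acrylamide IC5, against 373 ± 61.6 in controls (lowest 294, median 371, highest 461). Acrylamide IC20/100 cultures held 373 ± 79.5 (lowest 280.2, median 352, highest 509) and overlapped the controls. PCK2, the mitochondrial form of phosphoenolpyruvate carboxykinase, was at 63.3 ± 18.2 with acrylamide IC5 (lowest 35.8, median 59.9, highest 89.4), 472 ± 121 with acrylamide IC20/100 (lowest 344, median 450.1, highest 719) and 462 ± 86.8 in controls (lowest 373, median 431, highest 604). Fluoxetine separated its levels here, with 75.2 ± 14.97 at IC5 (lowest 57.04, median 74.3, highest 101) and 148 ± 32.99 at IC20/100 (lowest 104, median 139, highest 212).

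Of the secreted products, STC2, a stress-induced glycoprotein hormone, spanned the widest range, with its highest day 10 group at 15.95 times its lowest. It was at 48.6 ± 21.9 with acrylamide IC5 (lowest 20.2, median 50.7, highest 78.1) and 711 ± 151 with acrylamide IC20/100 (lowest 591, median 637, highest 1003), against 776 ± 250.2 in controls (lowest 472, median 771, highest 1111). The other compounds at IC5 had 270.4 ± 64.8 (valproic acid), 219 ± 57.5 (chlorpyrifos), 198 ± 71.8 (fluoxetine) and 415 ± 174 (methyl mercury). ADM2, a peptide of the calcitonin and adrenomedullin family, was at 16.9 ± 3.94 with acrylamide IC5, 15.96 ± 5.69 with valproic acid IC5 and 46.5 ± 6.82 with methyl mercury IC5 (lowest 40.7, median 44.2, highest 60.5), against 85.5 ± 15.5 in controls (lowest 55.4, median 86.1, highest 108). Its NPC level of 68.4 ± 13.1 overlapped the controls. When the 12 groups were ordered by mean for each member, 5 of 110 neighbouring pairs had ranges that did not overlap. This count was not made over all genes, so the pairs are listed as a description only. The 5 pairs were NPC above control for ATF4, methyl mercury IC5 above IC20/100 for ATF5, control above valproic acid IC20/100 for CEBPB, NPC above valproic acid IC5 for TRIB3, and methyl mercury IC5 above fluoxetine IC20/100 for ADM2.

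**Figure D1:**
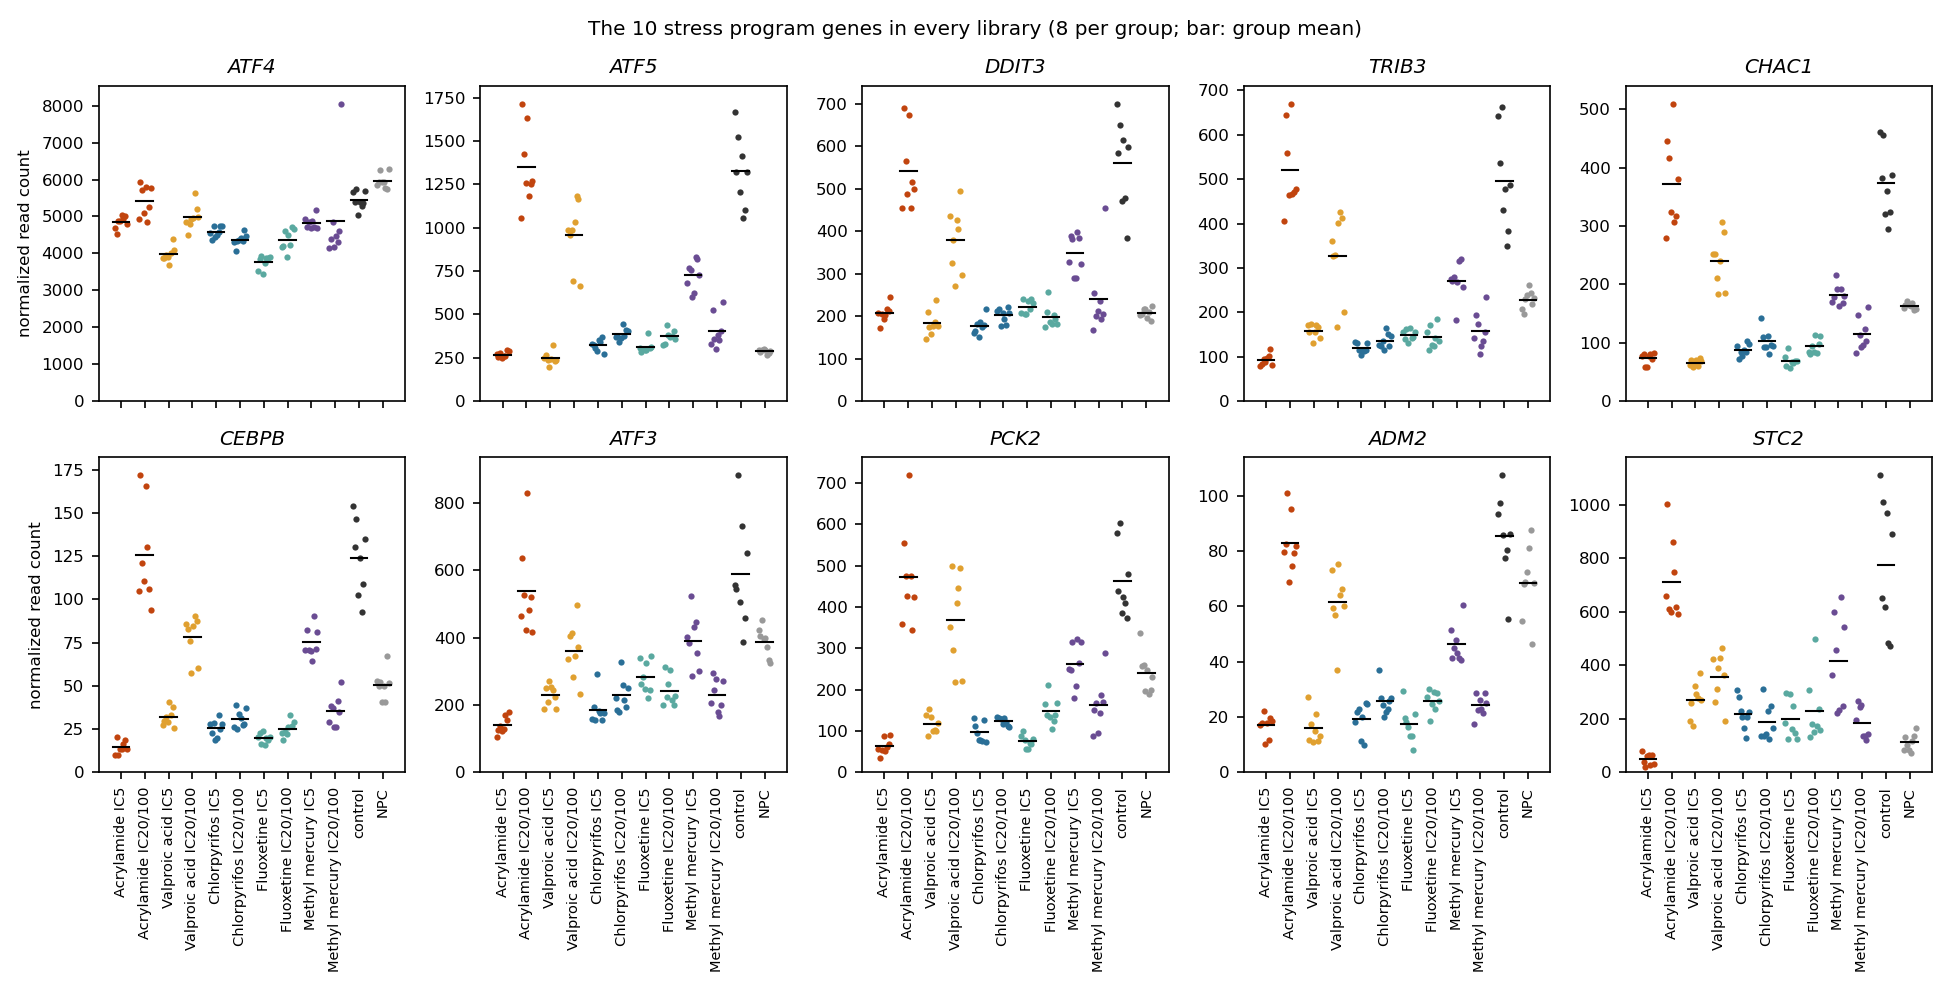
Deposited normalized counts of the 10 members in every library (points, linear axis from 0), with 1 panel per gene, the exposed groups, control and NPC along the x axis and the group mean as a bar. Acrylamide IC20/100 overlaps the controls in all panels, and ATF4 has the narrowest spread between groups.

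Set as a percentage of the control mean, the 9 members other than ATF4 were at 6.27 to 37.02% with acrylamide IC5 and at 91.13 to 104.77% with acrylamide IC20/100. Valproic acid gave 17.75 to 38.8% at IC5 and 45.79 to 79.57% at IC20/100. Chlorpyrifos gave 20.53 to 31.59% at IC5 and 24.08 to 38.77% at IC20/100, and fluoxetine 15.92 to 48.12% and 20.3 to 41.16% at the same levels. Methyl mercury was at 48.9 to 66.31% at IC5 and 24.01 to 42.99% at IC20/100, or 24.83 to 37.94% at IC20/100 with replicate 8 left out. ATF4 stayed between 69.19% (fluoxetine IC5) and 99.56% (acrylamide IC20/100). The lowest of the day 10 groups was acrylamide IC5 for 5 members, valproic acid IC5 for 3, chlorpyrifos IC5 for DDIT3 and fluoxetine IC5 for ATF4. The highest was the control for 6 members and acrylamide IC20/100 for the other 4.

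**Figure D2:**
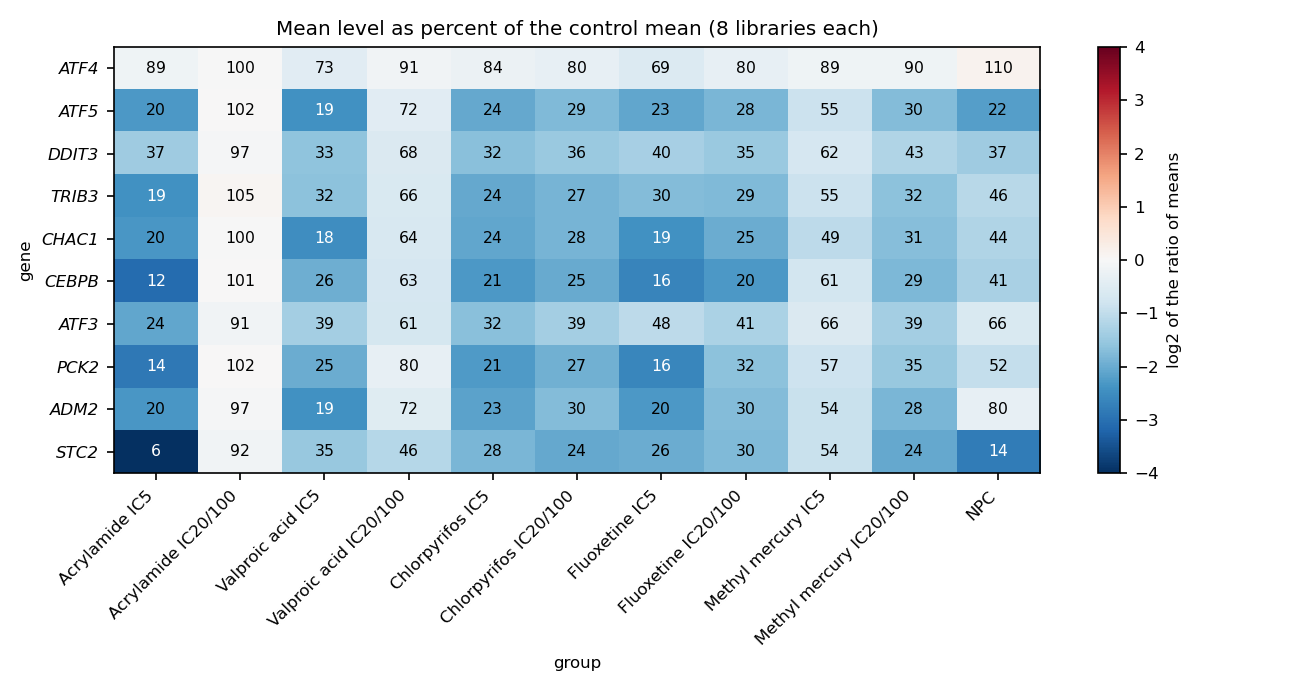
Heat map of the mean of each member (rows) in each group (columns), printed as a percentage of the control mean and coloured by the log2 of that ratio. At IC5 acrylamide takes the 9 members other than ATF4 down to 6.27 to 37.02%, while at IC20/100 they lie at 91.13 to 104.77%.

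Because the set was assembled with these contrasts in view, the calls against the controls are printed beside the share over all 20136 genes tested and nothing is read from them. With acrylamide, 10 members were called lower at IC5 (21.5% of all genes) and 0 at IC20/100 (0.00993%). At acrylamide IC20/100 limma gave 0 members at an unadjusted p under 0.05, edgeR and DESeq2 called 0, the log2 differences ran between -0.13 and 0.11, and the 95% intervals between -0.55 and 0.47. With valproic acid, 10 were called lower at IC5 (12.4% of all genes) and 7 at IC20/100 (1.37%), or 2 at IC20/100 when only the libraries compared were fitted. With chlorpyrifos 10 were called lower at both levels (9.75% of all genes at IC5 and 7.02% at IC20/100), and likewise with fluoxetine (5.94% and 7.54%) and methyl mercury (6.06% and 7.60%). All 8 exposed libraries lay below all 8 controls for 10 members at acrylamide IC5 (7.51% of all genes), 0 at acrylamide IC20/100 (0.00497%), 10 at valproic acid IC5 (3.05%) and 2 at valproic acid IC20/100 (0.154%). For the DMSO compounds this held for 10 members at chlorpyrifos IC5 (2.36%) and IC20/100 (1.97%), 10 at fluoxetine IC5 (1.77%), 9 at fluoxetine IC20/100 (1.88%), 5 at methyl mercury IC5 (1.84%) and 8 at methyl mercury IC20/100 (1.16%). The number of members that limma called lower with methyl mercury was 10 at both levels also without methyl mercury IC20/100 replicate 8. All these contrasts share the same 8 controls. The median log2 difference of the members was -2.29 at acrylamide IC5, 0.00 at acrylamide IC20/100, -1.75 and -0.59 for valproic acid at IC5 and IC20/100, and -0.83 and -1.64 for methyl mercury, while the median of all genes stayed within 0.01 of 0.

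Unexposed cultures at day 10 were set against NPC in a fit of those 16 libraries and 18063 genes. In this fit 8 members were called higher in controls (33.9% of all genes) and 1, ATF4, lower (36.8%), and nothing is read from these counts. STC2 was at 776 ± 250.2 in controls and 112 ± 32.5 in NPC (2.79 ± 0.26 on the log2 scale), and ATF5 at 1326 ± 206 and 288 ± 11.7 (2.16 ± 0.09). ATF4 differed by -0.14 ± 0.03. With upper-quartile scaling the median of all genes shifted to 0.12 and ATF4 was at -0.01 and not called. The size and call of its difference from NPC therefore rest on the scaling. ADM2 was not called by limma, at 0.27 ± 0.12 (adjusted p = 0.059), but edgeR (adjusted p = 0.0342), DESeq2 (0.0437) and limma after upper-quartile scaling (0.00946) called it higher in controls. In 9 of the 10 exposed groups, acrylamide IC20/100 being the exception, at least 2 members had a mean below that of NPC, up to all 10 at acrylamide IC5.

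The next comparisons ask whether the 2 named levels of a compound differed. With acrylamide, all 10 members were called lower at IC5 relative to IC20/100, where 21.1% of all genes were. Each of the 10 was lower in 6 of 6 sequencing runs. Agreement between runs was not counted over all genes, here or below, so nothing is read from it. The members' median was -2.30 on the log2 scale, against -2.29 for acrylamide IC5 minus control. With acrylamide IC20/100 near the controls, this contrast nearly repeats a comparison with unexposed cultures, the kind the set was selected on. Its p-values are therefore no independent support. STC2 changed by -3.95 ± 0.26 (adjusted p = 8.03e-23), CEBPB by -2.95 ± 0.13 (adjusted p = 1.11e-31) and PCK2 by -2.91 ± 0.17 (adjusted p = 5.31e-25). DDIT3 differed by -1.37 ± 0.11 and ATF4 by -0.15 ± 0.06 (adjusted p = 0.0227), the smallest of the 10. Without acrylamide IC20/100 replicate 5 the adjusted p of ATF4 was 0.0509. Adjusted p-values here and below are from limma with Benjamini-Hochberg adjustment over all 20136 genes.

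With valproic acid, 9 of the 10 members also fell at IC5 relative to IC20/100, with a median of -1.13, where 7.27% of all genes did. In 6 of 6 runs 8 members were lower at IC5. At valproic acid IC20/100 8 of the 10 members overlapped the controls, and the members' median was 66.89% of the control mean. The contrast therefore partly repeats a comparison with unexposed cultures, and its p-values are not fully independent of the selection. ATF5 changed by -1.92 ± 0.10 (adjusted p = 6.48e-26), ADM2 by -1.86 ± 0.16, CHAC1 by -1.81 ± 0.11 and DDIT3 by -1.02 ± 0.11. STC2 did not pass the test, at -0.40 ± 0.26 (adjusted p = 0.325) with a 95% interval of -0.90 to 0.11, with 270.4 ± 64.8 at IC5 and 355 ± 92.8 at IC20/100.

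With methyl mercury the direction was the opposite, and 9 of the 10 members rose at IC5 relative to IC20/100, where 2.58% of all genes did. In 6 of 6 runs 5 of the 10 members were higher at IC5, again without a count over all genes. STC2 changed by 1.07 ± 0.26, CEBPB by 1.05 ± 0.13 (adjusted p = 1.69e-08), ADM2 by 0.88 ± 0.16 and ATF5 by 0.87 ± 0.10 (adjusted p = 2.78e-09). CEBPB was at 75.1 ± 8.57 at IC5 (lowest 64.3, median 71.03, highest 90.2) and 35.7 ± 8.73 at IC20/100 (lowest 26.3, median 36.2, highest 52.4), and the libraries did not overlap. ATF4 was not called, at 0.03 ± 0.06 (adjusted p = 0.859). Without methyl mercury IC20/100 replicate 8 all 10 members were called, with ATF4 at 0.13 ± 0.03 (adjusted p = 0.0144). When only the 16 methyl mercury libraries were fitted, 4 members were called.

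With chlorpyrifos 0 members were called by limma, where 0.0497% of all genes were called in either direction. At an unadjusted p under 0.05 there were 4 members, all lower at IC5, and edgeR and DESeq2 called 0. The differences ran between -0.42 and 0.24, and their 95% intervals between -0.75 and 0.75. With fluoxetine 3 of the 10 members were lower at IC5 in 6 of 6 runs. By limma 4 members fell at IC5 relative to IC20/100, where 1.46% of all genes did. They were PCK2 at -0.93 ± 0.17 (adjusted p = 8.96e-05), ADM2 at -0.57 ± 0.16 (adjusted p = 0.0291), CHAC1 at -0.41 ± 0.11 (adjusted p = 0.0188) and ATF4 at -0.21 ± 0.06 (adjusted p = 0.0132). This count dropped to 2 without fluoxetine IC20/100 replicate 5 and when only the fluoxetine libraries were fitted, and edgeR and DESeq2 each gave 3. ADM2 also lost its call without fluoxetine IC20/100 replicate 2 or 7 or fluoxetine IC5 replicate 5, 6 or 7 (adjusted p up to 0.127), and CHAC1 without fluoxetine IC20/100 replicate 8 or fluoxetine IC5 replicate 4 (0.056 and 0.0583).

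**Figure D3:**
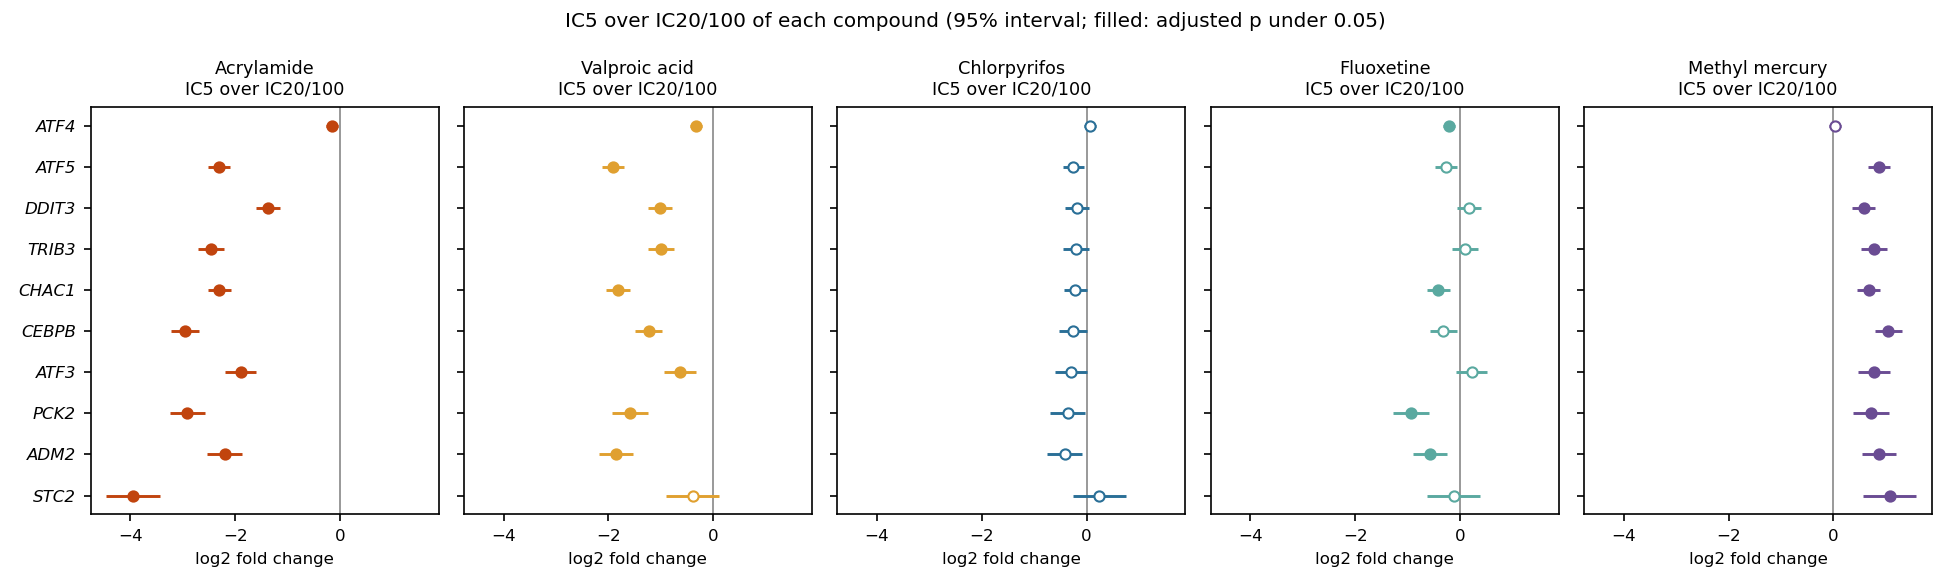
Log2 difference, IC5 minus IC20/100, of each member for the 5 compounds (points, with 95% intervals as bars, filled where the adjusted p was under 0.05). Acrylamide and valproic acid lie below 0, methyl mercury lies above 0 for all 10 members, 9 of them called, and the chlorpyrifos differences run between -0.42 and 0.24 with 0 called.

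Compounds with one vehicle were then set against each other at the same named level, in 8 pairs of groups. At IC5, all 10 members fell with fluoxetine relative to methyl mercury (3.99% of all genes), with CEBPB at -1.82 ± 0.13 (adjusted p = 3.62e-19). ATF3 was at -0.46 ± 0.15 (adjusted p = 0.0378), and it lost its call without any 1 of fluoxetine IC5 replicates 2, 4, 6 and 7 and methyl mercury IC5 replicates 1, 2, 3, 5 and 6 (adjusted p 0.0531 to 0.114). With chlorpyrifos relative to methyl mercury 9 fell (5.48% of all genes), with CEBPB at -1.50 ± 0.13 (adjusted p = 1.17e-14), and ATF4 was not called at -0.08 ± 0.06 (adjusted p = 0.404). STC2 lost its call there without methyl mercury IC5 replicate 6 (adjusted p = 0.0648). Chlorpyrifos and fluoxetine differed in ATF4, higher with chlorpyrifos by 0.28 ± 0.06 (adjusted p = 0.00022), and in ATF3, lower with chlorpyrifos at -0.61 ± 0.15 (adjusted p = 0.00432), where 6.82% of all genes were called in either direction. Without methyl mercury IC20/100 replicate 8, which enters this fit through the shared spread, 5 members were called between chlorpyrifos and fluoxetine, among them DDIT3 at -0.34 (adjusted p = 0.0122), and 4 were called when only their own libraries were fitted.

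Acrylamide and valproic acid at IC5 differed in 6 members, where 37.6% of all genes were called in either direction. ATF4 was higher with acrylamide by 0.29 ± 0.06. STC2 (-2.51 ± 0.26), CEBPB (-1.06 ± 0.13), PCK2 (-0.90 ± 0.17), TRIB3 (-0.74 ± 0.12) and ATF3 (-0.70 ± 0.15) were lower, with an adjusted p of 1.49e-13 for STC2. At IC20/100 the same pair had 7 members higher with acrylamide, where 0.949% of all genes were, with TRIB3 at 0.72 ± 0.12 (adjusted p = 0.000239) and STC2 at 1.04 ± 0.26. STC2 lost its call without acrylamide IC20/100 replicate 2 or valproic acid IC20/100 replicate 8 (adjusted p = 0.0566 and 0.071), and ATF3 without any 1 of acrylamide IC20/100 replicates 2, 3 and 5 and valproic acid IC20/100 replicates 1, 4 and 8 (0.0511 to 0.155). ATF4, PCK2 and ADM2 were not called, ATF4 was called without methyl mercury IC20/100 replicate 8 (0.12, adjusted p = 0.0276), and 0 members were called when only the libraries of this pair were fitted.

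At IC20/100, the 3 DMSO compounds gave 0 calls among the members by limma, edgeR or DESeq2. For chlorpyrifos minus fluoxetine 1 member had an unadjusted p under 0.05, and the 95% intervals ran between -0.73 and 0.54, where 0.0248% of all genes were called. For chlorpyrifos minus methyl mercury it was 2 members with intervals between -0.68 and 0.48 (0.00497% of all genes), and for fluoxetine minus methyl mercury 3 members with intervals between -0.72 and 0.70 (0.0199%). These intervals leave room for log2 differences of up to those sizes, so likeness is not shown. Both pairs with methyl mercury again had 0 members called without methyl mercury IC20/100 replicate 8.

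The mean of the 3 compounds dissolved in DMSO was set against the mean of the 2 dissolved in medium at IC20/100. All 10 members fell with the DMSO compounds, where 9.05% of all genes did, and the members' median was -1.45 on the log2 scale. Each member was lower in 6 of 6 runs, a count that was not made over all genes. CHAC1 was at 103 ± 18.97 with chlorpyrifos, 93.8 ± 12.9 with fluoxetine and 115 ± 27.5 with methyl mercury, against 373 ± 79.5 with acrylamide and 239.8 ± 45.04 with valproic acid. It changed by -1.51 ± 0.07 (adjusted p = 1.52e-29). CEBPB changed by -1.64 ± 0.09 (adjusted p = 1.02e-27), ATF5 by -1.54 ± 0.07 (adjusted p = 3.07e-32), DDIT3 by -1.09 ± 0.07 (adjusted p = 1.26e-21) and STC2 by -1.38 ± 0.16 (adjusted p = 1.6e-10). ATF4 moved least, by -0.21 ± 0.04 (adjusted p = 5.78e-06). The count was 10 without any single library, methyl mercury IC20/100 replicate 8 included. Vehicle and compound cannot be told apart in this contrast. Of the 2 medium groups, acrylamide IC20/100 lay near the controls and valproic acid IC20/100 was the next nearest exposed group. The contrast therefore partly repeats those against controls.

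**Figure D4:**
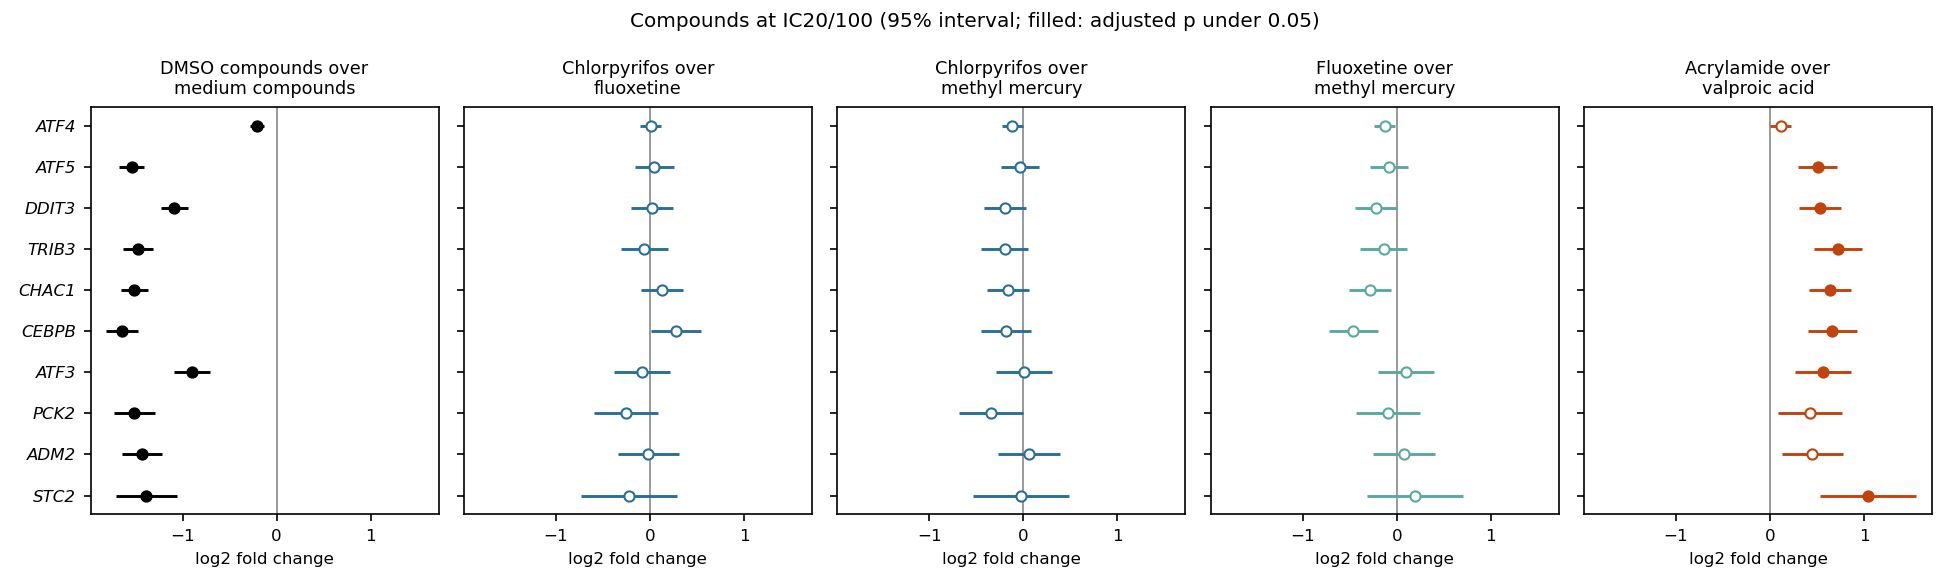
Log2 fold change of each member at IC20/100 (points, with 95% intervals as bars), in panels for the compounds dissolved in DMSO over those dissolved in medium and for 4 pairs of compounds with one vehicle. Filled points passed the adjusted p of 0.05, which all 10 members did in the first panel and none did in the 3 panels between DMSO compounds.

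Whether the effect of the named level differed between compounds of one vehicle was tested as an interaction. The difference IC5 minus IC20/100 was lower for chlorpyrifos than for methyl mercury in 8 members (1.31% of all genes) and lower for fluoxetine than for methyl mercury in 7 (1.76%), each of them 8 without methyl mercury IC20/100 replicate 8. Between acrylamide and valproic acid it was lower for acrylamide in 7 members (15.8% of all genes), with STC2 at -3.55 ± 0.36 (adjusted p = 3.69e-13), CEBPB at -1.72 ± 0.19 and TRIB3 at -1.47 ± 0.18. Between chlorpyrifos and fluoxetine limma called 0 members, where 1.88% of all genes were called in either direction, with 4 at an unadjusted p under 0.05, 0 by edgeR and 1 by DESeq2. ATF4 was closest, at 0.27 ± 0.08 (adjusted p = 0.0504), and was called without methyl mercury IC20/100 replicate 8 (0.27, adjusted p = 5.54e-05) or without any 1 of chlorpyrifos IC20/100 replicates 7 and 8, chlorpyrifos IC5 replicates 1 and 6, fluoxetine IC20/100 replicates 1, 4 and 6 and fluoxetine IC5 replicates 6 and 7.

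Other genes that ATF4 or CHOP are known to activate were followed in a list of 35, of which 34 were tested. With the DMSO compounds relative to the medium compounds at IC20/100, 26 fell and 0 rose, with a list median of -0.47 on the log2 scale, where 9.05% of all genes fell and 8.62% rose. Leaving out methyl mercury IC20/100 replicate 8, an alternative chosen after the data were seen, gave 27 that fell and 1 that rose. They included GDF15, a stress-induced cytokine (-2.08 ± 0.31), SLC7A11, the cystine importer (-1.73 ± 0.08), SLC7A5, a transporter of large neutral amino acids (-1.22 ± 0.07), and ALDH1L2, a mitochondrial folate enzyme (-1.01 ± 0.08). At acrylamide IC5 relative to IC20/100, 25 fell, where 21.1% of all genes fell and 20.0% rose, among them SLC7A11 (-2.14 ± 0.13), SLC7A5 (-1.82 ± 0.11), ASNS, asparagine synthetase (-1.53 ± 0.07), and SLC6A9, a glycine transporter (-1.50 ± 0.13). SQSTM1, an autophagy receptor (0.50 ± 0.14), and SESN3 (0.21 ± 0.06) rose. For valproic acid 24 fell and 1 rose (7.27% and 9.73% of all genes), with GDF15 at -2.06 ± 0.48 and SLC7A11 at -1.85 ± 0.13. Fluoxetine had 12 that fell (1.46% of all genes), with SLC7A11 at -1.10 ± 0.13 and MTHFD2 at -0.59 ± 0.07, and chlorpyrifos 0 in either direction. For methyl mercury 21 rose and 0 fell (2.58% and 2.60% of all genes), or 22 and 0 without its IC20/100 replicate 8, led by SLC7A11 (1.43 ± 0.13), SLC7A5 (0.79 ± 0.11) and ASNS (0.53 ± 0.07).

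**Figure D5:**
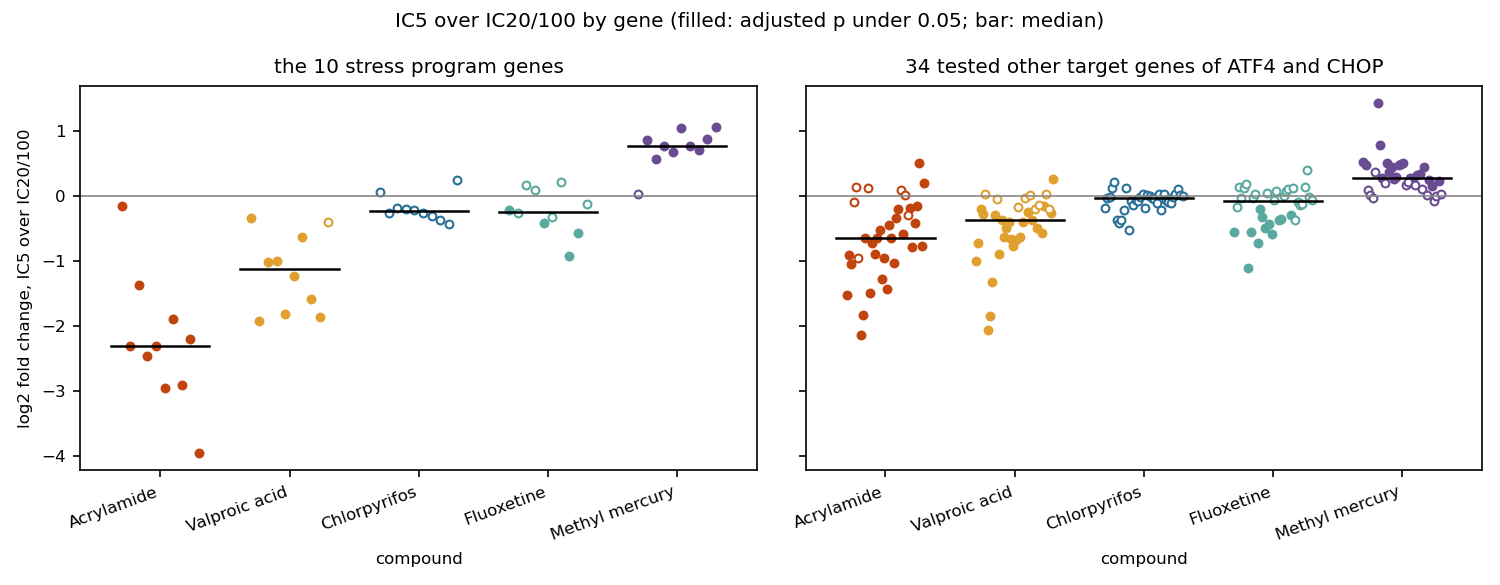
Log2 fold change, IC5 over IC20/100, of each member (left panel) and of each of the 34 tested other ATF4 or CHOP target genes (right panel) for the 5 compounds, filled where the adjusted p was under 0.05, with the median as a bar. The medians of the other targets are -0.64 for acrylamide, -0.37 for valproic acid and 0.28 for methyl mercury, on the same side of 0 as those of the members.

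Genes that feed into or run beside the pathway were followed in the same contrasts. Of 16 genes of eIF2 kinases and phosphatase control (the eIF2 list), 3 fell with the DMSO compounds relative to the medium compounds at IC20/100. They were PPP1R15A (-0.29 ± 0.03) and PPP1R15B (-0.23 ± 0.03), which direct dephosphorylation of eIF2α, and EIF2B2 (-0.14 ± 0.04). None of the 4 kinases passed the test there, with EIF2AK3 at 0.07 ± 0.12 and EIF2AK4 at 0.03 ± 0.03. Of 17 other bZIP factors and partners 9 fell, among them JDP2 (-1.11 ± 0.10), FOS (-0.61 ± 0.16) and NFE2L2 (-0.39 ± 0.06). Of 15 genes of the ATF6 and XBP1 arms of endoplasmic reticulum stress 3 fell and 1 rose, with HERPUD1, a factor of protein degradation at that organelle, at -0.60 ± 0.08 and the chaperone HSPA5 at 0.00 ± 0.02, which did not pass. The list medians were -0.01 for the eIF2 list and 0.00 for the ATF6 and XBP1 arms, beside -1.45 for the members. In this contrast 9.05% of all genes were lower and 8.62% higher. The counts of 1 and 3 in the eIF2 list and the ATF6 and XBP1 list lie within a few genes of that background, and nothing is read from them. Without methyl mercury IC20/100 replicate 8, which was left out after the data were seen, the same 3 genes of the eIF2 list and 9 bZIP genes fell. The ATF6 and XBP1 list then had 2 that fell and 1 that rose.

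At acrylamide IC5 relative to IC20/100, hypoxia-responsive genes fell in 9 of 12 cases with a list median of -1.09, among them EGLN3 (-1.62 ± 0.17) and BNIP3 (-1.53 ± 0.05). The bZIP list had 9 that fell and 3 that rose, with JDP2 at -2.15 ± 0.16 and JUN at -1.38 ± 0.05, and the ATF6 and XBP1 list had 1 that fell and 3 that rose. In this contrast 21.1% of all genes fell and 20.0% rose, and the counts of 1 and 3 do not exceed that background. At methyl mercury IC5 relative to IC20/100, 4 of 15 genes of the ATF6 and XBP1 list rose, with HYOU1 at 0.22 ± 0.06 and HSPA5 at 0.18 ± 0.04, where 2.58% of all genes did. Targets of p53 included 11 of 17 that fell with the DMSO compounds at IC20/100, with CDKN1A, a cell cycle inhibitor, at -0.92 ± 0.08 and FAS, a death receptor, at -0.62 ± 0.14 (9.05% of all genes). That list shares GDF15, TNFRSF10B and BBC3 with the ATF4 and CHOP targets. With methyl mercury IC5 relative to IC20/100, 4 of the 17 rose, with CDKN1A at 0.60 ± 0.13. When methyl mercury IC20/100 replicate 8 was left out, 11 of the p53 targets again fell with the DMSO compounds, while for methyl mercury IC5 relative to IC20/100 6 of them and 5 of the ATF6 and XBP1 list rose.

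Across the 11 day 10 group means the members ran together to different degrees. As a description, with libraries of the same runs behind every point, Pearson's r with the mean of the other members was 0.72 for ATF4, 0.84 for STC2, 0.92 for ATF3, 0.96 for DDIT3 and at least 0.97 for the other 6. Over the 45 pairs of members the median r was 0.92, the lowest 0.42 for ATF4 with STC2. The 11 means include the control and exposed groups behind the selection, so a high r between members was favoured in advance. With group differences removed, r over the 88 day 10 libraries ran between -0.02 for ATF4 with STC2 and 0.80 for ATF5 with TRIB3. Of 12499 protein-coding genes ranked by r with the mean of the members, 20 were above 0.95. Highest were SARS1 (0.99) and AARS1 (0.99), both tRNA synthetases, ASNS (0.99), PPP1R15B (0.99), SLC7A5 (0.98), JDP2 (0.98), KNOP1 (0.98) and SHMT2 (0.98), a mitochondrial serine and glycine enzyme. SARS1 was at 2726 ± 97.7 with acrylamide IC5 and 3061 ± 114 with fluoxetine IC5, against 5032 ± 385 in controls. Lowest were SLC38A10 (-0.96), CDKN2B (-0.96), an inhibitor of cyclin-dependent kinases, ACBD6 (-0.95) and RNF185 (-0.95).

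Markers of other cell types were read beside these results. Summed over the lists, day 10 libraries held 87113 to 110975 normalized counts of 12 neuron markers, 60461 to 117445 of 12 astrocyte markers, 34910 to 48398 of 10 progenitor markers and 0.0 to 23.1 of 8 microglia and blood markers, none of which passed the filter. The highest astrocyte sum was 1 library of methyl mercury IC20/100, a group with a median of 76029, and no other day 10 group exceeded 87774. The astrocyte sum is mostly VIM, at 72146 ± 2313 in controls, which progenitors also express. With the DMSO compounds relative to the medium compounds at IC20/100, 4 of 12 neuron, 2 of 12 astrocyte, 4 of 10 progenitor, 5 of 10 mesenchymal and 3 of 7 pluripotent markers tested were lower, where 9.05% of all genes were. Of these lists, 1 progenitor marker was higher, where 8.62% of all genes were. At acrylamide IC5 relative to IC20/100, 2 neuron markers were higher and 2 lower, 3 astrocyte markers higher and 3 lower, 5 progenitor markers higher and 4 lower, and 2 mesenchymal markers higher and 2 lower, where 20.0% of all genes were higher and 21.1% lower, so that the neuron, astrocyte and mesenchymal counts lie near the background. At methyl mercury IC5 relative to IC20/100, 3 neuron, 2 astrocyte and 2 progenitor markers were lower (2.60% of all genes). In the same contrast 1 progenitor and 2 pluripotent markers were higher (2.58%). With methyl mercury IC20/100 replicate 8 left out, 6 neuron markers were lower in each of the contrasts that use this group. Also without it, 6 mesenchymal and 2 pluripotent markers were lower with the DMSO compounds. For methyl mercury IC5 relative to IC20/100, 1 pluripotent marker was then higher. Astrocyte and progenitor counts stayed the same. The astrocyte sum was 60461 to 65494 at acrylamide IC5 and 82187 to 87774 at acrylamide IC20/100, against 80960 to 86876 in controls. The part of these cell type markers in the results on the stress program was not tested.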

How the data were processed

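Polyadenylated RNA of 96 libraries (12 groups of 8, spread over 6 sequencing runs of 16) was sequenced with a stranded kit, per the labels' protocols. Per the submitters' processing notes, bcl2fastq, FastQC 0.11.8, MultiQC 1.0, Salmon 1.3.0, DESeq2 1.30.0 and GRCh38 were used. No annotation release was stated. The deposited values are a signal made by the authors, gene counts divided by 1 size factor per library, from which whole reads were recovered (100.0% of positive values whole within 0.001 read). On these reads edgeR called 3602 genes for DMSO against medium compounds at IC20/100 and 8252 for acrylamide IC5 minus IC20/100. Symbols and positions were matched by Ensembl identifier, positions from GENCODE 29.

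The members, the lists and the tests were chosen with earlier results of these data known. limma 3.58.1 (R 4.3.3, trended prior) was run on deposited values after adding a pseudocount of 2 and taking log2, so fold changes of low genes are understated. Genes were kept with 10 or more in 8 or more libraries of a fit. Group and run were the terms, with 20136 genes and 72 residual degrees of freedom at day 10, and 18063 genes and 9 residual degrees of freedom for control and NPC. Calls needed an adjusted p (Benjamini-Hochberg, all tested genes) below 0.05. The 95% intervals are those of single differences and are not adjusted for their number. edgeR 4.0.16 and DESeq2 1.42.0 on the recovered reads, pseudocount, filter, run term, scaling, replicate block and single left-out libraries were alternatives, and the fitting was tested on simulated data. Named genes were the 10 members in every comparison, up to 4 called genes of each other list with the largest change (other genes named, among them kinases and HSPA5, were added after their values were seen), and the 8 genes most like and 4 least like the members. Lists besides the members covered other ATF4 and CHOP targets, eIF2 kinases and phosphatase control, bZIP factors, ATF6 and XBP1 arms, hypoxia, p53 targets and 6 marker lists. A further marker list is not reported here. Of 336 within-group pairs of libraries, 0 agreed within counting error. In 16 comparisons, same-numbered libraries did not deviate together, so replicate numbers were not taken as pairs. Promoter windows are from RefSeq (GRCh38.p14).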

Additional observations from a re-analysis of the deposited data

Results flagged for a closer look

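In 9 of 120 sets of 8 libraries (10 genes in 12 groups) 1 library lay far from the others, while chance alone marks about 1 in 20 such sets. Methyl mercury IC20/100 replicate 8 was such a library for ATF4 (8049 normalized counts) and DDIT3 (454.7), and its deposited total was the highest of the day 10 libraries. The other high libraries were fluoxetine IC5 replicate 6 for ATF5 (390.8), fluoxetine IC20/100 replicate 3 for DDIT3 (256.1), chlorpyrifos IC5 replicate 4 for ATF3 (290.9), chlorpyrifos IC20/100 replicate 1 for ADM2 (37.2), NPC replicate 7 for CEBPB (67.1) and NPC replicate 1 for PCK2 (336.8). Methyl mercury IC5 replicate 4 was low for TRIB3 (183.5).

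The difference IC5 minus IC20/100 was not the same for all compounds of one vehicle, by the limma interaction test with Benjamini-Hochberg adjustment over all genes. Values are log2 differences of that effect. Chlorpyrifos minus methyl mercury gave -1.12 for ATF5, -0.764 for DDIT3, -0.975 for TRIB3, -0.886 for CHAC1, -1.313 for CEBPB, -1.076 for ATF3, -1.081 for PCK2 and -1.297 for ADM2. The count was also 8 without methyl mercury IC20/100 replicate 8. Fluoxetine minus methyl mercury gave -1.131 for ATF5, -0.687 for TRIB3, -1.084 for CHAC1, -1.365 for CEBPB, -1.646 for PCK2, -1.444 for ADM2 and -1.193 for STC2. STC2 lost its call without any 1 of 15 libraries, which are fluoxetine IC20/100 replicates 1, 5 and 7, fluoxetine IC5 replicates 3, 5, 7 and 8, methyl mercury IC20/100 replicates 5, 6, 7 and 8 and methyl mercury IC5 replicates 2, 3, 6 and 8 (adjusted p 0.0507 to 0.123). Without methyl mercury IC20/100 replicate 8, ATF4 (-0.33, adjusted p = 2.75e-07) and DDIT3 (-0.53, adjusted p = 0.00923) were called as well.

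Acrylamide minus valproic acid gave -0.39 for ATF5, -1.465 for TRIB3, -0.486 for CHAC1, -1.722 for CEBPB, -1.258 for ATF3, -1.326 for PCK2 and -3.552 for STC2. ATF5 lost its call without any 1 of acrylamide IC20/100 replicates 2 and 5, acrylamide IC5 replicate 4, valproic acid IC20/100 replicates 4 and 8 and valproic acid IC5 replicates 2 and 6 (adjusted p 0.0541 to 0.102). Without methyl mercury IC20/100 replicate 8, ATF4 (0.18, adjusted p = 0.0021) and DDIT3 (-0.36, adjusted p = 0.0321) were called as well. Molar doses are not known, so these differences are between named levels.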

How the results depend on the processing

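Of 8620 pairs of a member's difference and an alternative, 8484 kept the side of the threshold. Among pairs called in either fit, 0 changed direction. Direction was not compared for pairs called in neither fit, which counted as kept where the shift stayed below the residual SD. Of the other 136, 87 came from leaving out 1 library and 26 from fitting only the libraries compared, which leaves fewer residual degrees of freedom. In that fit 2 members instead of 7 were called for valproic acid IC20/100 minus control, 2 instead of 4 for fluoxetine IC5 minus IC20/100, 4 instead of 9 for methyl mercury IC5 minus IC20/100, 0 instead of 7 for acrylamide minus valproic acid at IC20/100, and 4 instead of 2 for chlorpyrifos minus fluoxetine at IC5. The concentration effect of chlorpyrifos minus that of fluoxetine had 1 call instead of 0 in that fit, with a minimum value of 50, with the replicate block and with DESeq2, and the gene was ATF4. Leaving out 1 library at a time gave 2 to 4 calls for fluoxetine IC5 minus IC20/100, 2 to 5 for chlorpyrifos minus fluoxetine at IC5 and 0 to 1 for that concentration effect. For methyl mercury IC5 minus control, ATF4 lost its call without any 1 of 10 control or methyl mercury IC5 libraries. The cause of these changes was not tested.

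In 16 comparisons, 0 had every same-numbered pair of libraries correlated above 0.1, and the median correlation with run removed lay between -0.067 and 0.037, so the numbers do not pair the libraries. The replicate block gave 5 further calls. ADM2 reached 0.31 (adjusted p = 0.03) for control minus NPC and DDIT3 -0.33 (0.0467) for chlorpyrifos minus fluoxetine at IC5, and ATF4 was called for the concentration effect of chlorpyrifos minus that of fluoxetine (0.27, 0.0139), fluoxetine minus methyl mercury (-0.24, 0.024) and acrylamide minus valproic acid (0.18, 0.0383). Counts of calls moved by at most 1.5 times elsewhere. For chlorpyrifos IC5 minus IC20/100, edgeR called 17 and DESeq2 62 of all genes, against 10 by limma. Depth limits ADM2 and CEBPB most, at values under 20 in the lowest groups.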
